A study of Mus musculus with 16 samples.

Results

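The genes described here code for the proteins that copy DNA: the replicative helicase and its loaders, the polymerases and primase, the sliding clamp and its loader, the proteins that bind single strands and join Okazaki fragments, and the enzymes that supply deoxynucleotides. They were taken from a list of 45 gene symbols, and a gene counted as found where the deposited expression table listed that symbol. Of the 45, 43 were found among the 17715 rows of the table. Pola1 and Ccne1 were not found under these symbols and are not analysed here. Of the 43, 39 had at least 1 RPKM (reads per kilobase of transcript per mega of reads) in at least 4 of the 16 libraries and were tested; 14303 rows reached that level, these 39 included. The remaining 4, Mcm10, Pole, Orc1 and Ccne2, were below that level and are given by their values.

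The measurements are RNA-seq of endothelial cells of the lung, which form the inner wall of its vessels, isolated by fluorescence-activated cell sorting from female C57BL/6N mice. The 4 groups of 4 libraries are wild-type mice without a tumour (d0), mice carrying a primary tumour after subcutaneous implantation of Lewis lung carcinoma cells (d15), mice after resection of that tumour (d22) and mice with metastases (d36). Lewis lung carcinoma is a mouse tumour line that is used as a model of spread to the lung. No transgene or drug is named in the labels, and the age of the mice, the sort antibodies and whether animals were pooled are not given in the sources used here. The d36 libraries are replicates 1, 7, 8 and 9; the title of replicate 1 reads day 29 while its time point field, used here, reads d36.

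Before a cell can copy its DNA, the origin recognition complex with Cdc6 and Cdt1 loads the MCM helicase onto origins, a step that geminin (Gmnn) blocks once S phase has begun. Cdc45 and the GINS proteins then join the helicase, and polymerases epsilon, delta and alpha-primase build the new strands behind it, held by the PCNA clamp and fed by ribonucleotide reductase, thymidylate synthase, dUTPase and thymidine kinase. Many of these genes are transcribed in late G1 and S phase under E2F factors, and the endothelium of a healthy adult lung is known to be largely out of the cell cycle.

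All libraries carried endothelial transcripts: the mean of 16 pan-endothelial markers on the log2(RPKM + 1) scale ran from 7.34 to 7.79, and none was under 0.1 RPKM in any library. Approximate depth, read from the steps of the deposited values, ran from 93.4 to 152.2 mega reads per library. Libraries of one group correlated across genes with r from 0.978 to 0.99 outside d36. Within d36 r ran from 0.92 to 0.984, and replicate 9 stood apart from replicates 1, 7 and 8. At d36 4 of the 16, Tie1, Robo4, Egfl7 and Esam, were lower than at d0 (log2 fold changes -0.69, -0.70, -0.63 and -0.46). Ramp2 and Flt1 were higher (1.21 and 0.78). Among all rows tested 7.37% were lower and 16.6% higher. These d36 libraries also differed in transcripts of other cells. The 9 carcinoma cell and oncofetal markers found (of 12 listed) summed to 421.5, 294.4 and 250.2 RPKM in d36 replicates 1, 7 and 8 and to 27.0 in replicate 9, against 4.3 to 11.5 RPKM in the 12 libraries of the other groups. In the d0 libraries 4 or 5 of the 9 were under 0.1 RPKM, and Hmga2, Igf2bp2 and Prl2c2 were listed at 0 in all 4; none of the 9 was under 0.1 RPKM in a d36 library. Rhox5, a homeobox gene often active in tumour lines, read 147.6, 97.8, 91.6 and 11.1 RPKM in d36 replicates 1, 7, 8 and 9 and at most 0.196 at d0. The 12 leukocyte and myeloid markers found (of 14) summed to 68.6, 152.8, 213.6 and 59.0 RPKM in the same order, and the 7 fibroblast and pericyte markers found (of 10) to 44.4, 34.8, 44.3 and 4.5. At d0 these sums ran from 25.7 to 47.1 and from 4.5 to 5.5 RPKM, and Itgam, S100a8 and S100a9 were listed at 0 in all 4 d0 libraries. The leukocyte sum ran from 48.7 to 134.6 RPKM at d15 and was 63.3 in d22 replicate 6. The sums of d36 replicates 1 and 9 were thus not above all libraries without metastases. Lyz2 made up most of these sums, at 45.6 and 43.8 RPKM in d36 replicates 1 and 9. It also made up most of the highest d15 sum, at 130.8 RPKM in d15 replicate 4. In the mean log2(RPKM + 1) of the 12 markers, where Lyz2 weighs less, all 4 d36 libraries were above the other 12. This mean was 1.74 and 1.44 in d36 replicates 1 and 9 and at most 0.93 in the other groups. The 6 T, NK and B cell markers found (of 9) summed to 12.7, 3.9, 46.1 and 14.9 RPKM in d36 replicates 1, 7, 8 and 9 and to 3.2 to 5.0 at d0, so that replicate 9 did not stand below the rest. Cd79a and Cd79b of B cells were higher (1.40 and 1.80), but reached the level tested only through d36, which favoured their calls. Cd2, the other tested gene of this list, was not called (-0.12). The 10 lung epithelium markers found (of 12) gave the largest of these sums for other cells in every library, d0 included. They summed to 560.3, 363.6, 671.9 and 1146.4 RPKM in d36 replicates 1, 7, 8 and 9. Their sums ran from 808 to 1991 RPKM at d0, from 1281 to 3436 at d15 and from 1137 to 1631 at d22. The part of these markers in the d36 results below was not tested, and in bulk samples a change in the cells present and a change in RNA per cell cannot be told apart.

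The promoters of the genes are shown first because many hold the word that E2F factors are known to bind. RefSeq promoter windows (build GRCm38.p6, from 250 bases before to 50 after each annotated start) were given for 34 of the 43 genes and were searched on both strands for TTTCCCGC, TTTGGCGC, TTTCGCGC and TTTGCCGC, which can overlap one another. At least 1 of these words stood in a window of 14 of the 34 genes (41.2%), against 704 of all 27025 genes with a window (2.61%): Cdc6, Cdt1, Gins3, Lig1, Mcm3, Mcm5, Mcm6, Mcm7, Orc1, Pold1, Pold3, Pole2, Rfc3 and Uhrf1. The share was 7 of the 17 genes with a window that were higher at d36 than at d0 by the test given below and 6 of the 15 that did not pass it. A CCAAT box (CCAAT) stood in 21 of the 34 genes (61.8%; 41.1% of all genes with a window), and the word TTTGAA of the cell cycle homology region stood in 5 (14.7%; 20.2% of all). A match describes letters in a window and is not a measured binding site, and the absence of one says only that these letters are not there.
The 200 bases before the start are printed for 3 members with a match that were higher at d36 and, as a contrast, for Mcm2, which was also higher and held no match; none of these stretches overlaps an annotated exon, and capitals mark the E2F words.
Mcm5, chr8:75109309-75109508, plus strand: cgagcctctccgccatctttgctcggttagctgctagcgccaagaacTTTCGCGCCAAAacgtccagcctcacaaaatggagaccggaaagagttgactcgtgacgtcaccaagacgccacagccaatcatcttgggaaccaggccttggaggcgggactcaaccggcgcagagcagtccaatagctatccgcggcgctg
Mcm6, chr1:128359706-128359905, minus strand: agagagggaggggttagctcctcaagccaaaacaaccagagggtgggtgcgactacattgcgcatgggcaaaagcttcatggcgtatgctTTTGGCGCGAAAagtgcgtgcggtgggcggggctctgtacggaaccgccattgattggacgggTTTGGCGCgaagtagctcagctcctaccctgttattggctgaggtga
Uhrf1, chr17:56304113-56304312, plus strand: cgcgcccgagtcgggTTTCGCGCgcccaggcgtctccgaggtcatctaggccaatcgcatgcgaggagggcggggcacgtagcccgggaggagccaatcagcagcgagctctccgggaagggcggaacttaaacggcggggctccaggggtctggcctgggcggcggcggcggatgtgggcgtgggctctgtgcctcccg
Mcm2, chr6:88898781-88898980, minus strand: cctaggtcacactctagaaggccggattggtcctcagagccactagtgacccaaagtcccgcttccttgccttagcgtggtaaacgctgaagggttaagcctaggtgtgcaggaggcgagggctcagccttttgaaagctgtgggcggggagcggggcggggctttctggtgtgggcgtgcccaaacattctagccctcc
Mcm5 and Mcm6 each carry overlapping words on opposite strands, read as a single run of 12 capitals, and Mcm6 has another word 47 bases before its start. The Uhrf1 stretch lies before the later of its 2 RefSeq starts, inside the gene but outside its exons.

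Replication genes were higher in lung endothelial cells of mice with metastases than in those of mice without a tumour, and the rise was uneven among the libraries and among the genes. Of the 39 genes tested, 22 (56.4%) were higher at d36 than at d0 at an adjusted p under 0.05 in limma, and 0 were lower. Among all rows tested 16.6% were higher and 7.37% lower in the same comparison. The median log2 fold change of the 39 was 0.65 on the log2(RPKM + 1) scale, against 0.04 over all rows, and 36 of the 39 values were above 0. Rrm2, Tk1, Cdc6 and Uhrf1 reached the level tested only through their d36 libraries, so their calls were favoured by the filter; of the 35 genes that reached it with d36 set aside, 18 were higher (51.4%), against 15.5% of the 13761 rows that did so. Helicase genes, GINS and Cdc45, nucleotide supply and Uhrf1 held most of the calls, whereas none of the 3 RPA genes and none of the genes for polymerase delta passed. For 14 of the 39 (35.9%) all 4 d36 libraries lay above all 4 d0 libraries, which was so for 13.9% of all rows. These 14 include Rrm2, Tk1 and Uhrf1, so the filter favoured this count too. Wholly below lay 0, against 7.47% of all rows.

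The rise was carried by 3 of the 4 d36 libraries. Set against the d0 mean, the median ratio over the 43 genes was 2.54 in replicate 1, 1.97 in replicate 7 and 2.04 in replicate 8, but 1.14 in replicate 9. At least 2-fold above the d0 mean were 25, 21, 22 and 7 genes in that order. Of the 39 tested, 32 lay above all 4 d0 libraries in replicate 1 (38.4% of all rows), 31 in replicate 7 (37.4%), 33 in replicate 8 (37.6%) and 16 in replicate 9 (35.6%). Among the 39 here too are Rrm2, Tk1, Cdc6 and Uhrf1, which reached the level tested only through d36. With replicate 9 as the only d36 library, the median log2 fold change was 0.14. Without it, 29 of the 39 passed, beside 3115 of the 14303 rows. The genes gained were Mcm3, Tyms, Cdt1, Pola2, Pold2, Rpa1 and Fen1, so that their lack of a call rested on replicate 9. Leaving out any other single library gave between 19 and 23 calls, beside 1788 to 2371 of the 14303 rows. The count was 19 when the library titled day 29 (replicate 1) was left out.

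**Figure D1:**
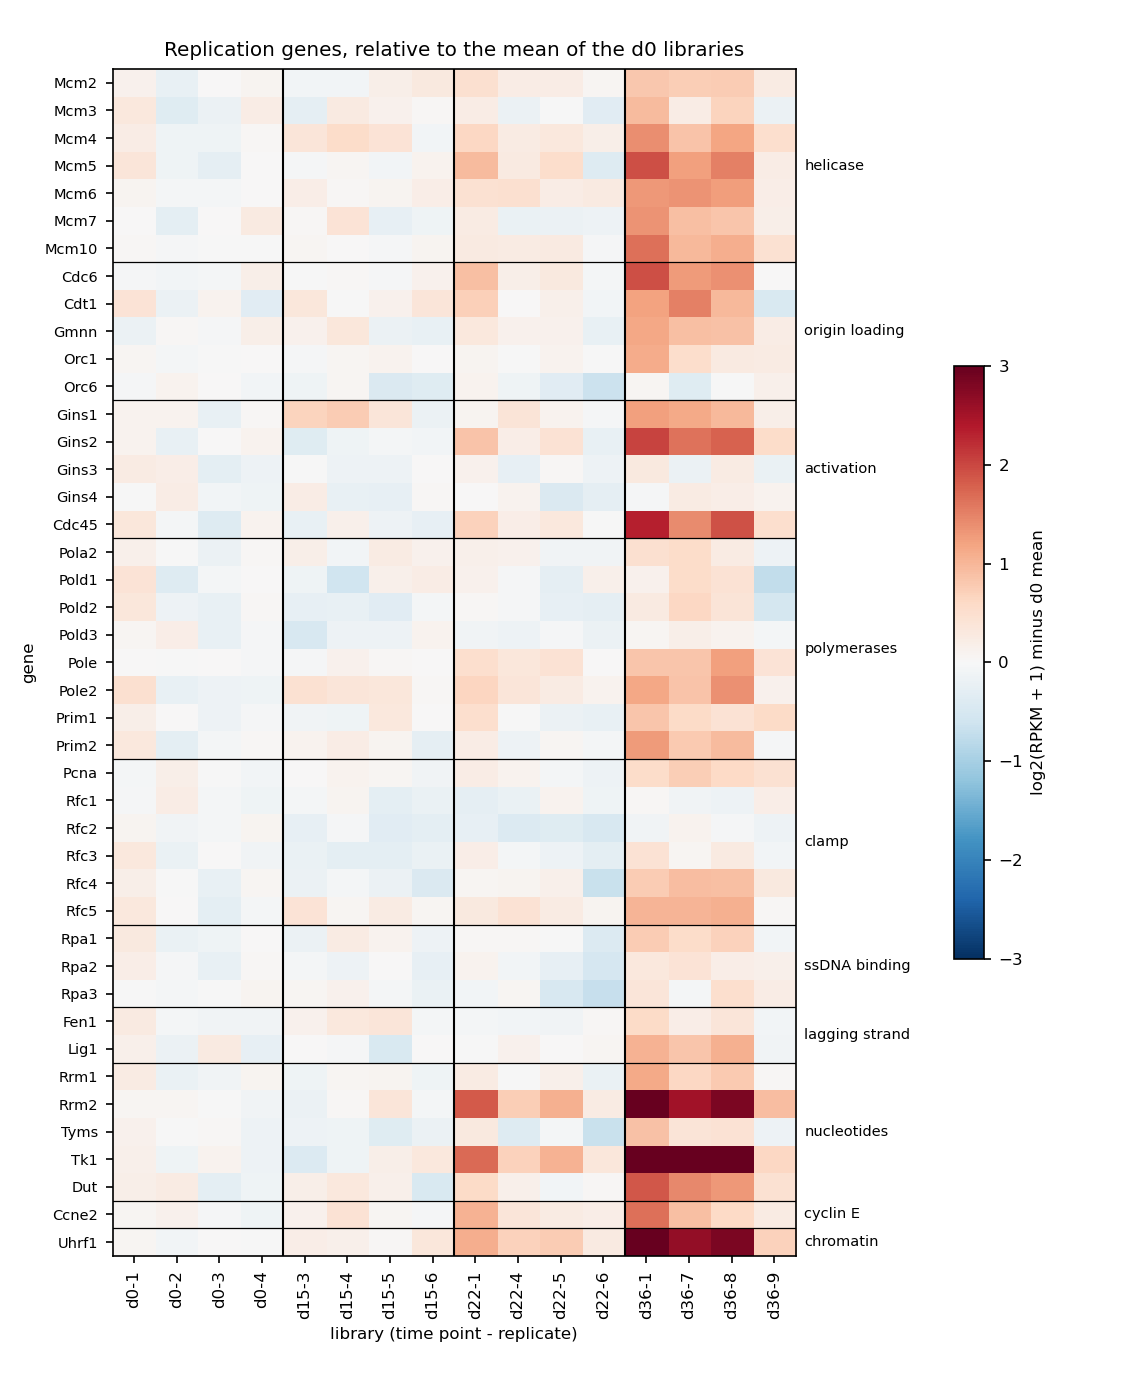
Heat map of the 43 genes (rows, by role) in the 16 libraries (columns, by group), coloured by log2(RPKM + 1) minus the mean of the 4 d0 libraries, with colours saturating at 3 in either direction. The d36 replicates 1, 7 and 8 form the block of high values, and replicate 9 is paler in most of its rows.

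Uhrf1, which reads hemimethylated DNA behind the fork and brings in the maintenance methyltransferase, had the smallest p. Its locus is chromosome 17, 56303321 to 56323486, plus strand, in mm10. Uhrf1 read 0.103, 0, 0.0651 and 0.0469 RPKM in the d0 libraries, 0.209, 0.179, 0.0777 and 0.335 under the primary tumour (d15), 1.24, 0.694, 0.773 and 0.266 after its resection (d22), and 7.70, 5.55, 6.52 and 0.693 in d36 replicates 1, 7, 8 and 9. All d36 libraries, replicate 9 included, were above every d0 and d15 library, while replicate 9 was within the d22 values. The mean went from 0.0537 ± 0.0426 at d0 to 5.12 ± 3.08 RPKM at d36 (mean ± SD of 4 libraries), a rise of 2.30 ± 0.35 (SE) in log2 units at an adjusted p of 0.000337.

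Among the genes of nucleotide supply, 4 of 5 rose: Rrm2, Tk1, Dut and Rrm1, while Tyms did not pass. Rrm2 codes for the small subunit of ribonucleotide reductase, which sets the pace of deoxynucleotide synthesis in S phase, and lies on chromosome 12 from 24708241 to 24714146 (plus strand). Its values were 0.316, 0.321, 0.255 and 0.171 RPKM at d0, 0.117, 0.287, 0.621 and 0.211 under the primary tumour (d15), 3.503, 1.11, 1.63 and 0.497 after its resection (d22), and 16.3, 6.20, 7.90 and 1.40 at d36. Every d22 and d36 library was above every d0 library, and d36 replicate 1 was the highest of the 16. The log2 fold change from d0 to d36 was 2.51 ± 0.42 (adjusted p = 0.000609). Tk1, the cytosolic thymidine kinase of the salvage route, had the largest log2 fold change of the 39, at 2.71 ± 0.47 (adjusted p = 0.000893) with a pseudocount of 1 RPKM, and is described in full because of that value, outside the rule for named genes. Tk1 read 0.341 to 0.668 RPKM at d0 and 18.8, 14.5, 11.9 and 1.28 RPKM in d36 replicates 1, 7, 8 and 9. With a pseudocount of 0.1 RPKM Uhrf1 (4.71) and Rrm2 (4.04) were above Tk1 (3.82), and in ratios of mean RPKM Uhrf1 (95.4) and Rrm2 (29.9) were above Tk1 (23.2). Dut, the dUTPase that keeps uracil out of DNA, had means of 1.64 ± 0.462 and 5.62 ± 2.40 RPKM at d0 and d36, and rose by 1.26 ± 0.24 (adjusted p = 0.00172). Rrm1, the large reductase subunit, was present at 13.96 ± 2.06 RPKM at d0 and rose by 0.65 (adjusted p = 0.0148); its call was lost without d36 replicate 1 (0.053) and in a fit of the 2 groups alone (0.0665). Tyms, thymidylate synthase, stood at 7.36 ± 0.681 and 10.2 ± 3.22 RPKM (0.38, adjusted p = 0.17).

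In the helicase, 5 of the 6 MCM2-7 genes rose: Mcm2, Mcm4, Mcm5, Mcm6 and Mcm7. Mcm4, on chromosome 16 from 15623897 to 15637400 (minus strand), had the smallest p of the complex. It read 9.01, 6.84, 6.83 and 7.75 RPKM at d0, 10.0, 11.5, 10.3 and 7.15 under the primary tumour (d15), 12.1, 9.10, 9.67 and 8.62 after its resection (d22), and 21.6, 14.5, 18.4 and 11.1 at d36. All d36 libraries of Mcm4 were above all d0 libraries, with replicate 9 the lowest of them (0.99 ± 0.18, adjusted p = 0.00107). The largest change of the complex was that of Mcm5, from 4.02 ± 0.992 to 11.5 ± 5.45 RPKM (1.22 ± 0.30, adjusted p = 0.00802), though replicate 9 read 4.73 RPKM, inside the d0 range of 3.14 to 5.41. Mcm6 was even among 3 d36 libraries at 35.1, 35.97 and 33.9 RPKM and read 15.7 in replicate 9, all above the d0 range of 13.0 to 14.5 (1.03 ± 0.19, adjusted p = 0.00114). Mcm7 rose by 0.82 and Mcm2 by 0.63 (adjusted p = 0.00889 and 0.00427). Mcm3, the most abundant of the 6 per length at d0, read 25.2, 15.5, 17.6 and 23.6 RPKM at d0, 16.4, 24.4, 22.1 and 20.7 under the primary tumour (d15), 23.7, 17.7, 20.1 and 15.8 after its resection (d22), and 39.6, 23.4, 32.4 and 17.7 at d36. Its groups overlapped, and the log2 fold change of 0.41 did not pass (adjusted p = 0.173). Mcm10, which helps to activate the loaded helicase, was below the level tested: it read 0 to 0.0413 RPKM at d0, and 2.20, 1.00, 1.18 and 0.403 RPKM in d36 replicates 1, 7, 8 and 9.

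Of the genes that join the helicase at firing, Cdc45, Gins1 and Gins2 rose and Gins3 and Gins4 did not pass, so the subunits of the 4-part GINS complex did not move alike in the counts of calls; the differences between them were not tested. Gins2 (chromosome 8, 120578633 to 120589304, minus strand) read 1.23, 0.785, 1.12 and 1.27 RPKM at d0, 0.619, 0.919, 0.995 and 0.981 under the primary tumour (d15), 2.78, 1.39, 1.83 and 0.795 after its resection (d22), and 7.57, 5.48, 6.18 and 2.07 at d36. The d36 libraries of Gins2 were all above those of d0 and d15, and replicate 9 lay between d22 replicates 5 and 1 (1.50 ± 0.26, adjusted p = 0.000736). Cdc45 went from 1.12 ± 0.436 to 5.72 ± 3.24 RPKM (1.54 ± 0.28, adjusted p = 0.00127) and Gins1 from 0.798 ± 0.189 to 2.43 ± 0.976 RPKM (0.88, adjusted p = 0.00813). Gins4 was present at 7.56 ± 0.93 RPKM at d0 and 8.30 ± 0.816 at d36, with a log2 difference of 0.12 (adjusted p = 0.555). For Gins3 the difference was 0.04 (adjusted p = 0.865).

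Of the 4 tested genes of origin recognition, loading and its control, Cdc6 and Gmnn rose. Gmnn, the inhibitor of Cdt1, lies on chromosome 13 from 24751845 to 24761923 (minus strand). It read 3.08, 3.70, 3.47 and 4.202 RPKM at d0, 3.99, 4.77, 3.08 and 2.94 under the primary tumour (d15), 4.71, 4.00, 4.05 and 2.94 after its resection (d22), and 9.31, 7.62, 7.39 and 4.37 at d36. Replicate 9 exceeded the highest d0 library of Gmnn by a small margin, and the other 3 d36 libraries stood clear of all groups (0.79 ± 0.18, adjusted p = 0.00506). Cdc6, the loader, was near 0 at d0 (0.0455 to 0.239 RPKM) and read 3.16, 1.65 and 1.83 RPKM in d36 replicates 1, 7 and 8, but 0.0983 in replicate 9, inside the d0 range (1.14 ± 0.28, adjusted p = 0.00838). Cdt1, the partner of Cdc6, showed the same split with 3.29, 4.31, 2.63 and 0.351 RPKM and did not pass (0.81, adjusted p = 0.0699). Orc6, a subunit of the origin recognition complex, was abundant in every group: 22.9, 25.1, 23.6 and 22.2 RPKM at d0, 21.2, 24.2, 17.2 and 18.1 under the primary tumour (d15), 25.1, 21.4, 18.3 and 14.6 after its resection (d22), and 24.4, 18.1, 23.3 and 25.9 at d36. Its groups overlapped throughout (log2 difference -0.04, adjusted p = 0.874). Orc1, below the level tested, read 0.0138 to 0.0927 RPKM at d0 and 1.29, 0.512, 0.271 and 0.255 RPKM at d36, so that every d36 library was above every d0 library. The cyclin E gene Ccne2, also below it, read 0 to 0.193 RPKM at d0 and 2.43, 1.04, 0.670 and 0.294 RPKM at d36, again without overlap.

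**Figure D2:**
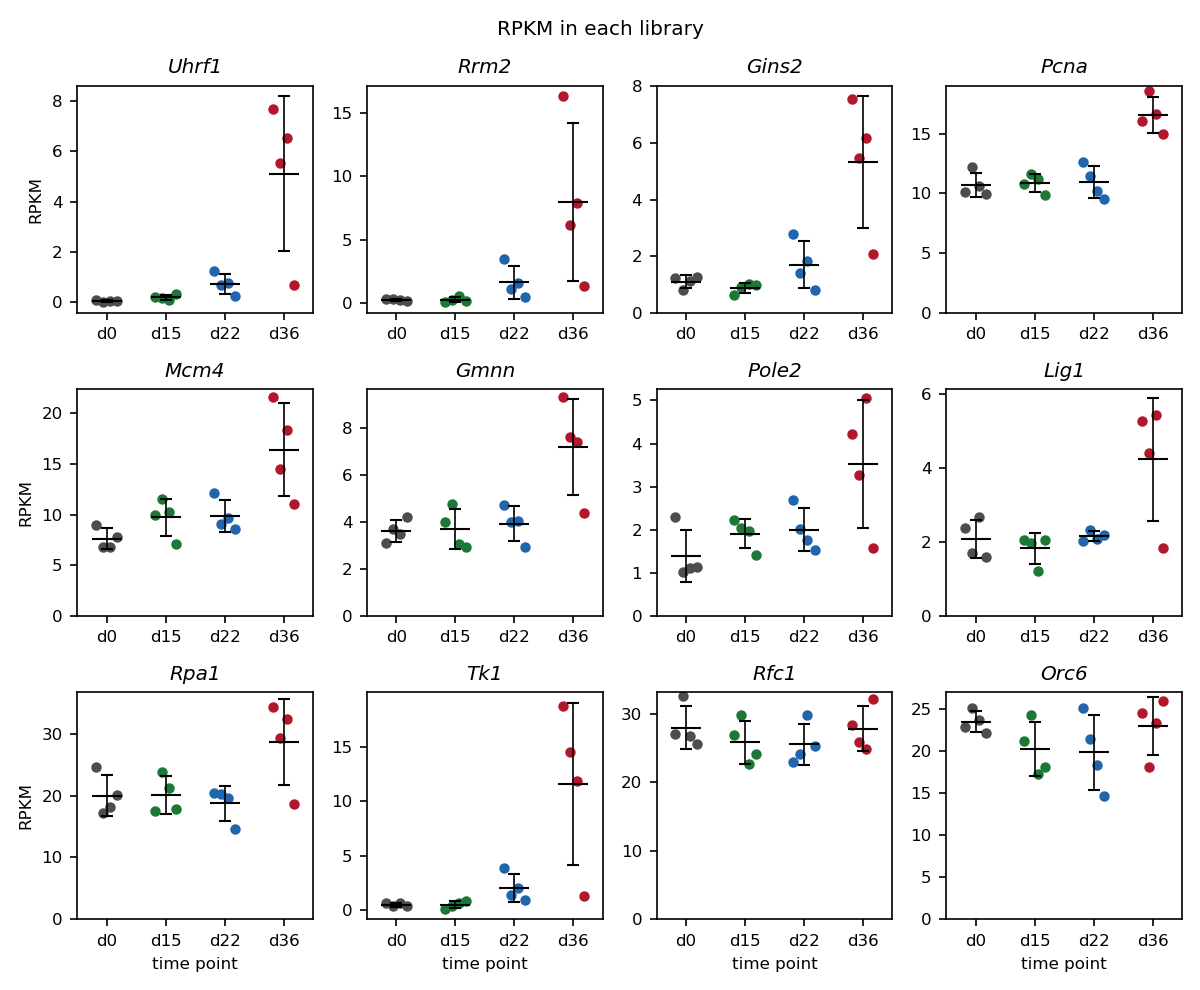
RPKM of 12 genes in each library (points; vertical axis, a separate linear scale for each gene) by group (horizontal axis), with the group mean and SD of 4 libraries as bars; Tk1 was added after its values were seen. Rrm2 and Uhrf1 run from near 0 at d0 to high values in 3 d36 libraries, whereas Rfc1 and Orc6 keep overlapping ranges in all groups.

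Of the 7 tested polymerase and primase genes, Prim1, Prim2 and Pole2 rose. Both primase genes rose, Prim1 by 0.60 and Prim2 by 0.74 (adjusted p = 0.0101 and 0.0185), while Pola2, the second subunit of polymerase alpha, did not pass (0.28, adjusted p = 0.157). The Prim2 call was lost without d0 replicate 2, d36 replicate 1 or d36 replicate 8 (adjusted p up to 0.0686), under quantile normalization (0.0519) and in a fit of the 2 groups alone (0.0797). In replicate 9 Prim1 was above the d0 range: it read 4.76, 3.80, 3.34 and 3.78 RPKM at d36 against 1.89 to 2.66 at d0. Pole2, a subunit of the leading-strand polymerase epsilon, read 2.29, 1.01, 1.12 and 1.14 RPKM at d0, 2.22, 2.04, 1.96 and 1.42 under the primary tumour (d15), 2.69, 2.03, 1.77 and 1.52 after its resection (d22), and 4.22, 3.27, 5.05 and 1.56 at d36. One high d0 library and d36 replicate 9 made its groups overlap (0.88 ± 0.22, adjusted p = 0.00941). The catalytic subunit gene Pole, below the level tested, read 0 to 0.0422 RPKM at d0 and 0.830, 0.825, 1.40 and 0.359 RPKM at d36. The 3 genes of the lagging-strand polymerase delta, Pold1, Pold2 and Pold3, were present at 6.65, 15.9 and 13.3 RPKM at d0 and showed log2 differences of 0.09, 0.18 and 0.07, none of which passed (adjusted p = 0.816, 0.51 and 0.711).

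The clamp rose, and its loader split. Pcna, the ring that holds the polymerases on DNA, lies on chromosome 2 from 132249162 to 132253314 (minus strand). It read 10.1, 12.2, 10.6 and 9.96 RPKM at d0, 10.8, 11.6, 11.2 and 9.87 under the primary tumour (d15), 12.6, 11.5, 10.2 and 9.55 after its resection (d22), and 16.1, 18.6, 16.6 and 15.02 at d36. Pcna differed from most of the genes in that replicate 9 was close to the other d36 libraries and above every library of the other groups (0.58 ± 0.10, adjusted p = 0.00107). Of the loader subunits, Rfc4 and Rfc5 rose, by 0.72 and 0.78 (adjusted p = 0.00806 and 0.00818), while Rfc3 did not pass (0.17, adjusted p = 0.384). Rfc1, the large subunit, read 27.0, 32.6, 26.7 and 25.6 RPKM at d0, 26.9, 29.8, 22.6 and 24.1 under the primary tumour (d15), 23.0, 24.2, 29.8 and 25.3 after its resection (d22), and 28.4, 25.8, 24.9 and 32.2 at d36, with overlap between all groups and a log2 difference of -0.01 (adjusted p = 0.968). Rfc2 was the most abundant of the 43 genes per length, at 43.5 ± 2.97 RPKM at d0, and showed a log2 difference of -0.04 between d36 and d0 (adjusted p = 0.774).

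The single-strand binding genes Rpa1, Rpa2 and Rpa3 did not pass (adjusted p = 0.0576, 0.133 and 0.22). Rpa1, the large subunit, read 24.7, 17.1, 18.2 and 20.1 RPKM at d0, 17.5, 23.9, 21.3 and 17.8 under the primary tumour (d15), 20.4, 20.3, 19.7 and 14.6 after its resection (d22), and 34.4, 29.3, 32.4 and 18.6 at d36. Replicates 1, 7 and 8 of d36 were above all other libraries of Rpa1 and replicate 9 was inside the d0 range (0.47 ± 0.17); without replicate 9, without d0 replicate 1 or without d22 replicate 6 Rpa1 passed. Of the Okazaki fragment genes, Lig1, the ligase, passed and Fen1, the flap nuclease, did not (0.26, adjusted p = 0.18). Lig1, on chromosome 7 from 13277283 to 13311433 (plus strand), read 2.36, 1.71, 2.66 and 1.58 RPKM at d0, 2.05, 1.96, 1.21 and 2.06 under the primary tumour (d15), 2.02, 2.33, 2.07 and 2.19 after its resection (d22), and 5.26, 4.39, 5.43 and 1.83 at d36. Its replicate 9 lay within d0 (0.71 ± 0.21, adjusted p = 0.021), and with replicate 9 alone the difference was -0.10. The Lig1 call was lost without d0 replicate 2, d0 replicate 4, d36 replicate 1 or d36 replicate 8, with an adjusted p of up to 0.0725. It was also lost under quantile normalization (0.0675) and in a fit of the 2 groups alone (0.0886).

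**Figure D3:**
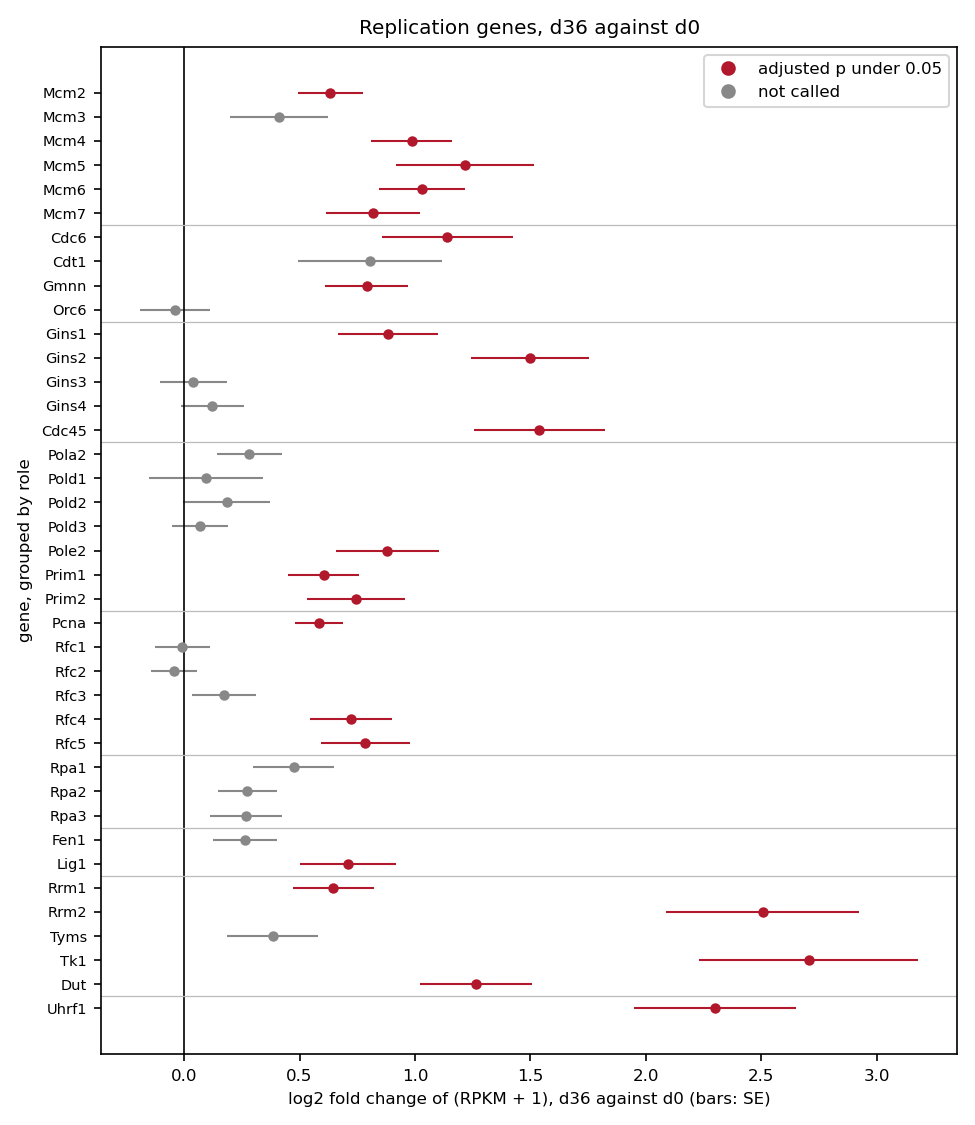
Log2 fold change between d36 and d0 on the log2(RPKM + 1) scale (horizontal axis) for the 39 tested genes by role (vertical axis), with the standard error from limma and filled points at an adjusted p under 0.05. The 22 filled points are all above 0, from Pcna at 0.58 to Tk1 at 2.71, and the polymerase delta, Rfc1, Rfc2 and Orc6 points lie near 0.

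Genes that were lowest in the lung without a tumour had the largest ratios. The 8 genes with a d0 mean under 0.5 RPKM had folds in mean RPKM of 10.8 to 95.4 between d0 and d36 (median 26.6): Uhrf1, Mcm10, Pole, Rrm2, Tk1, Cdc6, Ccne2 and Orc1. For the 11 genes from 0.5 to 2 RPKM the median fold was 2.92, for the 14 from 2 to 10 it was 1.76, and for the 10 over 10 it ran from 0.969 to 2.22 with a median of 1.28. From 0.5 RPKM upwards, calls stood at 7 of 11, 8 of 14 and 3 of 10 tested; no count is given for the lowest class, since its 4 tested genes reached the level tested only through d36. The 3 called genes of the top class were Mcm6, Pcna and Rrm1, and the uncalled ones included Rfc1, Rfc2, Orc6 and Rpa1. The d0 mean enters both axes of this relation, so it is a description with no test. Folds of the 8 lowest genes rest on d0 means down to 0.0194 RPKM, and the log2(RPKM + 1) scale understates them.

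**Figure D4:**
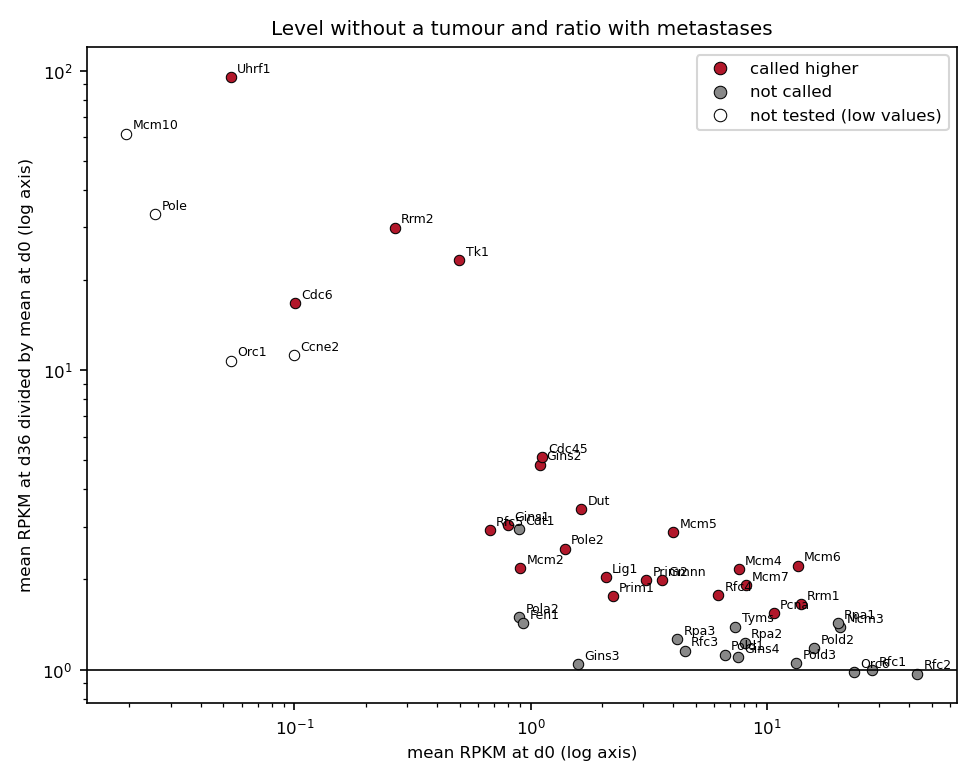
Mean RPKM at d0 (horizontal log axis) against the ratio of mean RPKM at d36 to that at d0 (vertical log axis) for the 43 genes, with tested and called genes marked. Ratios reach 95.4 for Uhrf1 at the left and lie between 0.969 and 2.22 for the 10 genes above 10 RPKM.

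After resection of the primary tumour (d22), 0 replication genes were higher than at d0 in limma (8.09% of all rows) and 1 of 39, Rfc2, was lower (7.1%). At an unadjusted p under 0.05 there were 2 genes, Rfc2 and Rrm2. Rfc2 codes for a small subunit of the clamp loader and lies on chromosome 5 from 134581366 to 134601805 (plus strand). It read 46.1, 40.2, 41.8 and 45.8 RPKM at d0, 36.5, 42.5, 34.2 and 35.2 under the primary tumour (d15), 36.7, 32.2, 33.6 and 31.0 after its resection (d22), and 40.6, 46.8, 42.4 and 38.8 at d36. All d22 libraries were below all d0 libraries, and the fall of 0.37 ± 0.10 had an adjusted p of 0.0181. The Rfc2 call was lost without d0 replicate 1, d0 replicate 4 or d22 replicate 6 (adjusted p up to 0.0586) and under quantile normalization (0.0556).

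At d22, 4 genes lay wholly above d0 in all 4 libraries, Rrm2, Tk1, Uhrf1 and Mcm6 (10.3%, against 14.2% of all rows), and Rfc2 alone lay wholly below (12.3% of all rows). The log2 differences of Rrm2, Tk1, Uhrf1 and Mcm6 were 0.97, 0.95, 0.70 and 0.35, and none passed (adjusted p = 0.128, 0.193, 0.193 and 0.218). With a pseudocount of 0.1 RPKM Rrm2 and Uhrf1 passed, at 2.02 and 2.36 (adjusted p = 0.0321 and 0.0127), as they did with array weights, with the replicate block and in a fit of the 2 groups alone. Replicate 1 was the highest d22 library for Rrm2, Tk1, Uhrf1, Cdc6 and Gins2. In all, 19 of the 39 genes in d22 replicate 1 lay above all 4 d0 libraries (31.4% of all rows), 9 in replicate 4 (31.5%), 9 in replicate 5 (27.4%) and 4 in replicate 6 (35.2%). The median log2 fold change of the 39 was 0.02, the same as over all rows, and it was negative under quantile normalization, without d22 replicate 1 (-0.04) and among genes with a mean of at least 5 RPKM (-0.09). Without d36 replicate 9, which enters through the shared estimate of the spread, the 4 genes Rrm2, Tk1, Uhrf1 and Mcm6 were called higher at d22, as were 1585 of the 14303 rows, a like share.

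With the primary tumour in place at d15, 0 of the 39 genes were higher (0.608% of all rows) and 0 were lower (0.573%) than at d0 in limma. At an unadjusted p under 0.05 there was 1 gene, Rfc2, at a log2 difference of -0.23 (adjusted p = 0.255). The median of the 39 was 0.01, and -0.03 with libraries scaled to one sum of RPKM, and the widest differences were 0.40 for Gins1 and -0.24 for Rfc3. No gene had its 4 d15 libraries wholly above (5.34% of all rows) or wholly below (6.94%) those of d0. The standard errors ran from 0.10 for Rfc2 to 0.47 for Tk1, so a difference within a few of these errors was not detectable.

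Between d22 and d15, 0 of 39 genes were higher (2% of all rows) and 0 lower (1.06%), and 1 had an unadjusted p under 0.05. Tk1 showed the widest log2 difference, 0.96. Without d36 replicate 9, 2 genes were called higher, beside 687 of the 14303 rows, again a like share.

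Compared with d22, 21 of the 39 genes (53.8%) were higher at d36 and 0 lower, against 8.73% and 3.07% of all rows, with a median log2 fold change of 0.58. The 39 include Rrm2, Tk1, Cdc6 and Uhrf1, which reached the level tested only through d36, so the filter favoured them here too. Pcna had the smallest p (0.56 ± 0.10, adjusted p = 0.00361), followed by Gins2 (1.18, adjusted p = 0.00777), Rfc4 (0.82, adjusted p = 0.00786) and Uhrf1 (1.60, adjusted p = 0.00812). Here Rpa1, Rpa2 and Rpa3 passed, with log2 fold changes of 0.56, 0.45 and 0.57, and so did Rfc2, at 0.33; these 4 genes had their lowest group mean at d22. The count moved with single libraries: it was 13, 9 and 7 without d22 replicates 4, 5 and 6, was 7, 10 and 8 without d36 replicates 1, 7 and 8, and was 32 without d36 replicate 9. Over these settings from 712 to 2291 of the 14303 rows were higher. With libraries scaled to one sum of RPKM 10 passed, beside 693 of all rows.

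Compared with d15, 19 of the 39 (48.7%) were higher at d36 and 0 lower, against 9.87% and 1.64% of all rows, with a median of 0.58. Tk1 (2.72), Rrm2 (2.47), Uhrf1 (2.12), Gins2 (1.66) and Cdc45 (1.66) had the widest differences, with adjusted p-values from 0.00083 to 0.00189. Of these, Tk1, Rrm2 and Uhrf1, like Cdc6 among the 39, reached the level tested only through d36, which favoured their calls. The 3 comparisons with d36 share its 4 libraries and are not independent of one another. The count was 10 without d36 replicate 1, 12 without replicate 8 and 29 without replicate 9, beside 798, 850 and 2306 of the 14303 rows.

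On the scale of group means, the 43 genes averaged, in log2(RPKM + 1), 2.13 ± 0.11 at d0, 2.14 ± 0.04 at d15, 2.24 ± 0.21 at d22 and 2.87 ± 0.42 at d36 (mean ± SD of 4 libraries). By library the d36 means were 3.24, 2.96, 3.02 and 2.28 in replicates 1, 7, 8 and 9, of which the last was inside the d0 range of 2.04 to 2.29. The mean of 23 mitosis genes, which act after replication, was 3.26, 2.61, 2.81 and 0.86 at d36, 1.30, 0.62, 0.67 and 0.39 at d22 and 0.25 to 0.35 at d0. In replicate 9 the mitosis mean was thus above the d0 range, unlike the replication mean. The lists differ in level at d0, with means of 0.30 for mitosis and 2.13 for replication, so they are not alike in this respect. Of the 8 replication genes with a d0 mean under 0.5 RPKM, all but Cdc6 were above every d0 library in replicate 9. The difference between the lists was not tested. The mean of the carcinoma cell and oncofetal markers was 4.39, 3.68, 3.89 and 1.51 in the d36 libraries and at most 0.89 in the other 12.

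**Figure D5:**
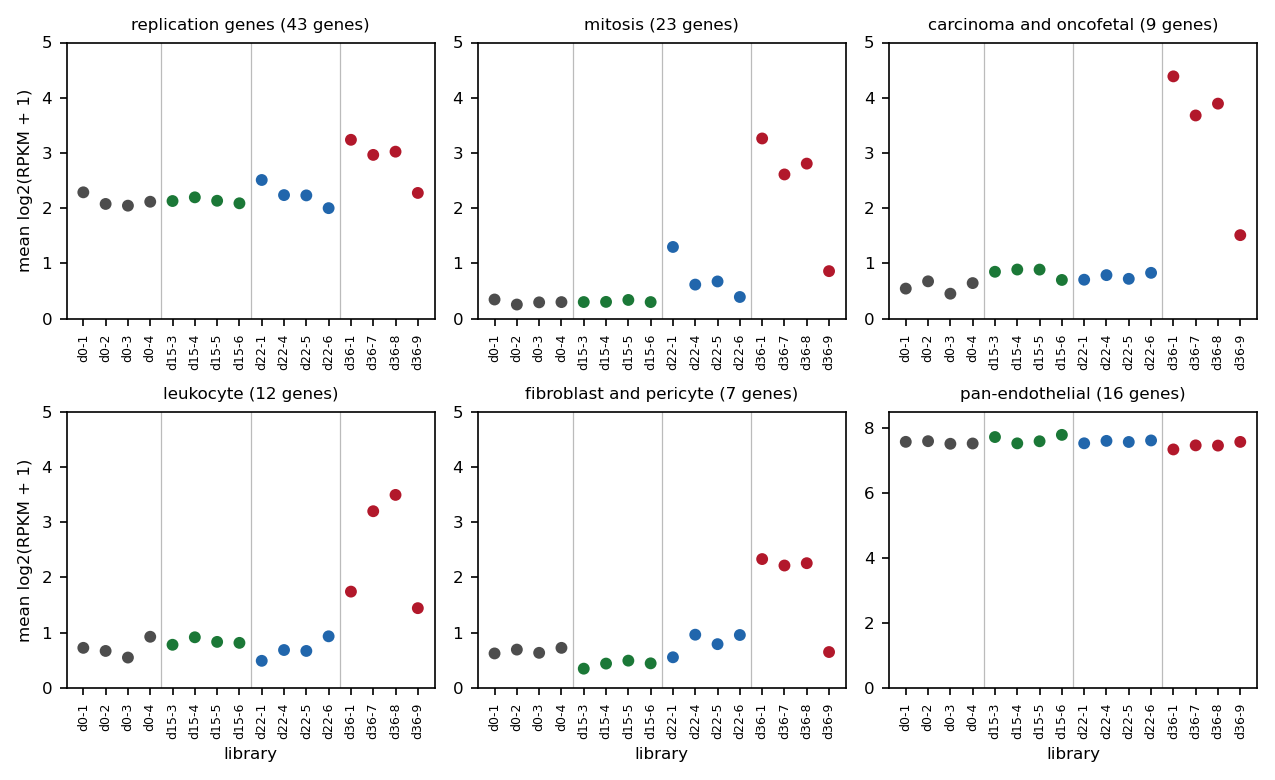
Mean log2(RPKM + 1) of gene lists (vertical axis) in each of the 16 libraries (horizontal axis, by group) for the replication genes, related cell cycle lists and marker lists. In d36 replicates 1, 7 and 8 the replication, mitosis and carcinoma means are above those of all other libraries, and in replicate 9 the replication mean of 2.28 is within the d0 range.

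Other genes of the same pathways, from lists drawn up with earlier results of these data known, were counted in the comparison of d36 with d0. Of 23 tested genes of the fork and of licensing (30 found of 37 listed), 14 rose and 0 fell (16.6% and 7.37% of all rows, here and for the lists that follow), with a median of 0.48. With d36 set aside 20 of the 23 reached the level tested, of which 11 rose; Timeless, Asf1b and Hells did not reach it. The smallest p-values were those of Topbp1, which links origin firing to the checkpoint kinase ATR (1.28, adjusted p = 1.42e-05), the chromatin remodeller Hells (1.48, adjusted p = 0.000162), the histone mRNA binding protein gene Slbp (0.94, adjusted p = 0.000697) and the fork protection gene Tipin (0.64, adjusted p = 0.000899). Topbp1 was also higher at d22 than at d0, by 1.23 (adjusted p = 5.35e-05), with means of 0.67, 2.92 and 3.05 RPKM at d0, d22 and d36. At d22 this list had 3 genes higher and 2 lower, against 8.09% and 7.1% of all rows.

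Of 20 tested further genes of nucleotide supply, 9 rose at d36 and 0 fell (median 0.56). The smallest p-values were those of the purine synthesis genes Paics (0.67, adjusted p = 0.00193), Gart (0.53, adjusted p = 0.00417) and Ppat (0.60, adjusted p = 0.00459) and of the folate enzyme gene Mthfd1 (0.86, adjusted p = 0.0133). Among other purine genes of the list, Impdh2 rose (0.66, adjusted p = 0.0211), while Impdh1 (-0.29, adjusted p = 0.309) and Adk (0.24, adjusted p = 0.382) did not pass. Of 21 tested G1/S regulators, 9 rose and 0 fell (median 0.42). With d36 set aside 19 of the 21 reached the level tested, of which 8 rose. Lin9, which rose, and Tfdp2, which did not pass, reached it only through d36. The 9 included Cks1b, a subunit of cyclin-dependent kinases (3.24, adjusted p = 0.000103), and Myc (4.84, adjusted p = 0.000361). Also among them were the E2F partner Tfdp1 (0.71, adjusted p = 0.00396) and Fbxo5, an inhibitor of the anaphase-promoting complex (0.85, adjusted p = 0.00531). Myc had a mean of 1.32 RPKM at d0, 4.12 at d22 and 119.7 at d36.

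Of 23 mitosis genes found, 16 were tested, and 13 of these reached the level tested only through their d36 libraries, so a count of calls over this list says little. Top2a (3.35), Ube2c (3.74), Cdk1 (3.64) and Prc1 (3.04) had the smallest p-values at d36 (adjusted p from 5.39e-05 to 0.000393), and of these 4 Cdk1 reached the level with d36 set aside. At d22 0 of the 16 passed. Of 5 tested inhibitors of cyclin-dependent kinases, Cdkn1b (p27) rose at d22 and d36, by 0.86 and 1.13 (adjusted p = 0.00797 and 0.000736), and Cdkn2b (p15) fell by 1.06 at d22 (adjusted p = 0.0129) and did not pass at d36 (-0.57, adjusted p = 0.124). The other genes nearest to passing at d36 were Cdkn2d (0.73, adjusted p = 0.0549) and Cdkn1a (0.59, adjusted p = 0.301). Of 6 tested genes of the S-phase checkpoint and fork repair, Blm, a helicase of fork repair, rose (0.46, adjusted p = 0.015), though it reached the level tested only through d36, and Rad1, Rad9a and Atrip did not pass (0.25, -0.18 and 0.12; adjusted p = 0.128, 0.273 and 0.557). At d15 none of the genes of these 6 lists was called.

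The authors' deposited table has its own log2 fold changes and adjusted p-values at each later time point, with no comparison group named in its headers. Its log2 values for the 43 genes differed from the log2 ratio of mean RPKM to d0 by a median of 0.05, 0.03 and 0.03 at d15, d22 and d36. By the authors' deposited table, 26 of the 43 genes were higher at d36 and 0 lower, against 16.9% and 5.36% of rows. These 26 are the 22 called here together with Mcm10, Pole, Orc1 and Ccne2, at log2 values of 4.86, 4.37, 2.90 and 2.88 in the authors' deposited table. At d22 the authors' deposited table has 4 genes higher, Rrm2 (2.25), Tk1 (1.86), Mcm6 (0.41) and Mcm4 (0.40), and Rfc2 lower (-0.35), against 16.5% and 9.18% of rows. At d15 it has 0 in either direction, against 5.07% and 2.82% of rows. It gives no adjusted p for 6 of the 43 genes at d15 and for 5 at d22, which cannot count in either direction there.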

How the data were processed

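The authors deposited one table with an RPKM value per row and library, per the file headers. Their deposited log2 fold changes and adjusted p-values, one pair per later time point by the file headers, name no comparison group. STAR, DESeq2 and mm10 are named in the submitters' processing notes without versions; the annotation, counting and strand setting are not given in the sources used here, so overlapping genes cannot be told apart. Low values gave whole reads in only 393 of 4103 rows (9.6%, within 0.1 read), so no count test was run, and depth is approximate.

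RPKM values were analysed as log2(RPKM + 1) in limma 3.58.1 (R 4.3.3): 1 fit with a mean trend over the 4 groups (12 residual degrees of freedom), two-sided tests, and Benjamini-Hochberg adjustment over the 14303 rows with at least 1 RPKM in at least 4 libraries, at 0.05. The code was tested on simulated data. The series design calls the libraries of a group independent biological replicates. No pair of libraries held identical values.

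The genes and lists were chosen with earlier results of these data known. Values in every library are given for the smallest p of each role at d36, for genes called without d36 or that fell, and for the 5 most abundant genes not called. Up to 4 genes of each list are named by their p, and some others are named beside related genes. Alternatives changed the pseudocount, filter, scaling, weights, groups fitted, prior and replicate block, and left out single libraries; d36 replicate 9 as the only d36 library, and the counts among genes that reach the level tested with d36 set aside, were added after seeing the data. Coordinates are from GENCODE on mm10, and promoters from RefSeq on GRCm38.p6.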

Additional observations from a re-analysis of the deposited data

Results flagged for a closer look

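The mean of all 43 genes, the means of the 8 roles with more than 1 gene found and the 13 genes given in every library by the rule were examined for a single library far from the other 3 of its group, in 88 groups in all, of which 5 stood out; chance alone gives about 1 in 20 groups. All values are on the log2(RPKM + 1) scale. At d36, replicate 9 was far below the others in the mean of the clamp and clamp loader genes (3.441, against 3.753 to 3.769) and in the mean of the polymerase and primase genes (2.034, against 2.704 to 2.729). Pole2 had a high d0 replicate 1 (1.719, against 1.01 to 1.1), Lig1 a low d15 replicate 5 (1.144, against 1.567 to 1.613) and Rpa1 a low d22 replicate 6 (3.961, against 4.37 to 4.423). No cause was tested for any of them.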

How the results depend on the processing

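Under every alternative run, 0 genes were lower at d36 than at d0, d22 or d15, and none was lower at d15. With the fit on d36 replicate 9 alone set aside, the 22 genes higher at d36 than at d0 stayed within 1.5 times that number in all settings but 1. This was 7 with a mean of at least 5 RPKM, where fewer genes were tested and 1195 of 6510 rows were higher. Against d22 the 21 became 9 with a mean of at least 5 RPKM and 10 with libraries scaled to one sum of RPKM. In a fit of the 2 groups alone they became 1, beside 359 of the 14303 rows, and without single libraries 7 to 32. Against d15 the 19 became 0 to 8 in these same settings, and 10 to 29 without single libraries. Of all rows, 753 of 6510 were higher than at d15 with a mean of at least 5 RPKM. With libraries scaled to one sum 837 of the 14303 rows were higher, and 366 in a fit of the 2 groups alone. The 0 genes higher at d22 than at d0 became 2 at a pseudocount of 0.1 RPKM, 7 with array weights and 4 in a fit of the 2 groups alone. Beside these stood 1207, 2198 and 1785 of the 14303 rows. Without single libraries the 0 became 0 to 4. The 1 lower gene (Rfc2) became 0 under quantile normalization and 0 to 1 without single libraries. Between d22 and d15 the 0 became 2 with array weights (852 of all rows), 1 in a fit of the 2 groups alone (541) and 0 to 2 without single libraries. Lig1 changed sign at d36 with replicate 9 alone (-0.10). The cause was not tested.

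With the replicate number as a block, 12 genes were higher at d36 than at d22, 10 than at d15 and 17 than at d0, and at d22 2 were higher and 0 lower than at d0. Of the 22 genes higher at d36 than at d0, the block lost Mcm2, Pcna, Prim1, Rfc4 and Rfc5. A fit of the 2 groups alone lost Rrm1, Pole2, Prim2, Rfc5 and Lig1. Correlations between same-numbered libraries ran from -0.11 to 0.22, so the numbers are not taken to pair the libraries, and the block leaves 4 residual degrees of freedom. Over all rows, d36 against d0 gave 2376 higher and 1054 lower calls, 1579 and 2214 with libraries scaled to one sum of RPKM, and 1713 and 1980 under quantile normalization; the scaling to one sum moved the median of all rows from 0.04 to -0.07, and 22 and 20 of the 39 genes were called higher under these scalings. Values near 0 at d0 and the spread within d36 limit the size of the folds.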
